A study of Rattus norvegicus with 9 samples.

Results

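Genes of sterol and fatty acid synthesis were examined in rat aortic smooth muscle cells (RASMC) in which Na+,K+-ATPase had been inhibited. The list held 42 genes, chosen by symbol with earlier results of these data known. It had 18 enzymes of sterol synthesis and 11 enzymes of fatty acid synthesis, elongation and desaturation. There were also 5 regulators of the sterol regulatory element binding proteins (SREBP). The other 8 were genes of the liver X receptors (LXR), cholesterol efflux and cholesterol transport. A gene entered when a probe set of the array was annotated to that gene alone, and 36 of the 42 genes did so, among 14324 such genes on the array. These were 15 sterol enzymes, 9 fatty acid enzymes, 4 SREBP regulators and 8 genes of the LXR and transport class. *Hmgcs1*, *Mvk*, *Fdps*, *Fasn*, *Elovl1* and *Srebf1* were not analysed here, the last because its probe set is annotated to a second gene as well.

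RASMC, a purchased culture of smooth muscle from rat aorta carried through less than 10 passages, were grown in DMEM with 10% serum and made quiescent for 24 hr in 0.2% serum. They were then kept for 6 hr in 1 of 3 media, namely DMEM containing 3 mM ouabain, a cardiac glycoside that blocks the sodium pump, DMEM made without K+, which stops the same pump by removing its outside substrate, or control DMEM. RNA of 3 independent experiments per medium was hybridised to whole-transcript rat arrays, giving 9 arrays. In such bulk RNA, fewer cells of a type and less RNA per cell cannot be told apart.

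Cholesterol is built from acetyl-CoA through mevalonate, isoprenoid diphosphates, squalene and lanosterol, and the enzymes of this line are transcribed together under SREBP2. Fatty acid synthesis starts from citrate and acetate, runs through malonyl-CoA, and is followed by elongation and desaturation, with SREBP1 as the better known regulator. SREBPs are held in the endoplasmic reticulum by SCAP and the INSIG proteins when sterol is plentiful and are released when it is scarce. LXRs respond to oxysterols and raise the exporters of cholesterol, so that sterol synthesis and cholesterol export are known to run in opposite senses.

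Values are log2 signals after robust multi-array averaging (RMA), so that a difference of 1 is a doubling. The medians of the 9 arrays lay between 6.76 and 6.80, and arrays of 1 medium correlated at 0.996 to 0.998 over all probe sets. A gene is said to have risen or fallen where the adjusted p of limma was under 0.05 and the change was above 1.2-fold. The label of the cells was checked by markers: *Tagln* averaged 13.60, *Cald1* 12.73 and *Cnn1* 12.27 in control cells, whereas *Des* stood at 5.63 there. Of 6 adipocyte markers 1 rose with ouabain, and the list had mean log2 signals per array of 5.56 to 5.71 with ouabain, 5.60 to 5.65 in K+-free medium and 5.44 to 5.54 in control cells. The 4 measured endothelial markers, of which *Cdh5* rose in both treatments, had means of 5.71 to 5.79 with ouabain and 5.73 to 5.78 in K+-free medium, against 5.57 to 5.64 in control cells. Of 6 fibroblast markers 1 rose with ouabain and 2 rose when K+ was left out, and the list means were 8.58 to 8.62 for ouabain, 8.77 to 8.78 for K+-free medium and 8.38 to 8.44 for control. Of the 9 smooth muscle markers, 6 fell under ouabain and 4 without K+. Their list means were 10.005 to 10.113 with ouabain and 10.106 to 10.138 in K+-free medium, against 10.454 to 10.501 in control cells. The changes of single smooth muscle markers ran from -1.61 to 0.18 with ouabain and from -1.48 to 0.24 without K+. Over all probe sets 16.8% fell and 15.8% rose with ouabain, and 17.9% fell and 16.1% rose without K+. What part these shifts had in the changes of the lipid genes was not tested.

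Short stretches of promoter are shown as a description, and what part their letters had in the changes was not tested. The RefSeq promoter table of build GRCr8 held 34 of the 42 listed genes and 29 of the 36 measured ones, and the 250 bases before each start were searched on both strands. Capitals mark TCACNCC, the first part of the classical sterol regulatory element, in the first 5 stretches and CCAAT, the box read by NF-Y, in the last 3. Where the match lies on the other strand its reverse complement is in capitals, and each stretch is written on the strand of its gene.
Mvd: catgcgtagatTCACTCCctgagcagaccc
Acat2: cgtcctgcgcaGGCGTGAggaggcgtggcg
Cyp51: acctagctggaGGCGTGAcgcagaaagccc
Msmo1: tctcactatccTCACTCCatccgcgcagcc
Srebf2: atgacgcgccaTCACCCCatgagccgcttc
Nsdhl: aggcgagctagaCCAATcaacattatgaag
Fads1: cactcggctcagCCAATgggagggcgcgcc
Lss: ggtgatgctctgATTGGccgcgctcgcatc

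These stretches lie at chr19:67415127-67415156 (minus strand) for *Mvd*, chr1:50100729-50100758 (plus strand) for *Acat2*, chr4:30991537-30991566 (plus strand) for *Cyp51* and chr16:29746912-29746941 (plus strand) for *Msmo1*. The others lie at chr7:115543140-115543169 (plus strand) for *Srebf2*, chrX:155817283-155817312 (plus strand) for *Nsdhl*, chr1:216252559-216252588 (plus strand) for *Fads1* and chr20:12118295-12118324 (minus strand) for *Lss*. TCACNCC was present before 4 of 12 sterol enzymes, before 0 of 7 fatty acid enzymes, before 1 of 4 SREBP regulators (*Srebf2*) and before 1 of 6 genes of the LXR and transport class (*Nr1h3*, not printed), 6 of 29 in all, against 13.4% of all 27457 genes with a window. The longer element TCACNCCAC, which contains TCACNCC, was in 0 of 29 member windows and in 1.09% of all windows. CCAAT was in 9 of 12 sterol enzyme windows, 5 of 7 fatty acid enzyme windows, 3 of 4 SREBP regulator windows and 2 of 6 windows of the LXR and transport class, against 36.1% of all genes. GGGCGG, the Sp1 box, was in 21 of 29 member windows and in 33.5% of all windows (48.0% of the windows of genes on the array), and CACGTG, an E-box, was in 5 of 29 and in 6.18%. A match of letters is a description of the window only.

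Of the 24 sterol and fatty acid enzymes, 20 fell in both treatments (13 sterol and 7 fatty acid enzymes). With ouabain 25 of the 36 genes fell and 3 rose against control, and in K+-free medium 26 fell and 2 rose. Over all 27342 probe sets, 16.8% were called lower and 15.8% higher with ouabain, and 17.9% lower and 16.1% higher in K+-free medium. Among the 14324 genes with a probe set of their own, 22.7% fell with ouabain and 24.0% in K+-free medium, and among the 3052 of these with a mean log2 signal above 10 the shares were 20.3% (ouabain) and 23.8% (K+-free medium). The median change of the 36 genes was -0.55 for ouabain and -0.64 for K+-free medium, beside medians of 0.07 and 0.06 over all probe sets. Signals of treated and control arrays did not overlap for 32 of 36 genes with ouabain, where 54.2% of all probe sets did not, and for 32 of 36 in K+-free medium, where 57.1% did not. Among the 3052 genes with a mean log2 signal above 10 they did not overlap for 2319 with ouabain and 2495 in K+-free medium. Of the 17 members above that signal, 15 did not overlap in each treatment. Both treatments lowered 24 of the 36 genes and raised 2. The treatments share their control arrays, so that the counts side by side are not separate evidence. The genes were chosen with earlier results of these data known, so that their shares beside those of all probe sets are a description only.

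Centring the arrays on the mean of 11 reference genes gave 2 higher and 31 lower genes with ouabain and 2 higher and 30 lower in K+-free medium. The same centring changed the split over all probe sets to 2356 higher and 5888 lower with ouabain, against 4312 higher and 4583 lower as deposited, and to 2754 higher and 6228 lower in K+-free medium, against 4391 higher and 4890 lower. Centring on *B2m* gave splits of 2166 higher and 6223 lower with ouabain and of 2375 higher and 7059 lower in K+-free medium. On the deposited values 3 of the 11 reference genes rose with ouabain (*Hprt1*, *Tbp* and *Tfrc*, named after their values were seen) and 2 rose without K+ (*Hprt1* and *Tfrc*), and none fell. Their median change was 0.11 with ouabain and 0.14 without K+. Their mean log2 signal, which this centring subtracts from every gene of an array, was 12.20 to 12.26 with ouabain and 12.20 to 12.23 without K+, against 12.07 to 12.13 in control cells.

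By class, 14 of 15 sterol enzymes fell with ouabain (median change -0.88) and 13 of 15 in K+-free medium (median -0.88). Of the fatty acid enzymes, 7 of 9 fell with ouabain (median -0.92) and 9 of 9 in K+-free medium (median -0.88). Of the SREBP regulators, 2 of 4 fell in each treatment (medians -0.34 with ouabain and -0.23 in K+-free medium). The LXR and transport class was divided, with 3 genes higher and 2 lower of 8 under ouabain (median -0.02) and 2 higher and 2 lower in K+-free medium (median 0.07). Of all probe sets 16.8% fell and 15.8% rose with ouabain, and 17.9% fell and 16.1% rose in K+-free medium. Among genes with a probe set of their own 22.7% (ouabain) and 24.0% (K+-free medium) fell. The 25% of the LXR and transport class that fell in each treatment was near these shares. The mean log2 signal of the 15 sterol enzymes per array was 9.95 to 10.08 with ouabain and 9.93 to 10.03 in K+-free medium, against 10.94 to 11.02 in control cells. For the 9 fatty acid enzymes the same mean was 10.45 to 10.52 with ouabain and 10.45 to 10.48 in K+-free medium, against 11.30 to 11.38 in control cells. Neither treatment had an array that reached the control range in these classes. The same held for the 4 SREBP regulators, at 10.199 to 10.325 (ouabain) and 10.266 to 10.309 (K+-free medium), against 10.509 to 10.625 in control cells. It also held for the smooth muscle markers and for the lists of other lipid genes and fatty acid oxidation described below. The reference genes and the endothelial, fibroblast, macrophage and adipocyte markers were apart from control as well, on the higher side. Being apart from control was therefore not particular to the enzymes. The LXR and transport class was apart from control in K+-free medium only.

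**Figure D1:**
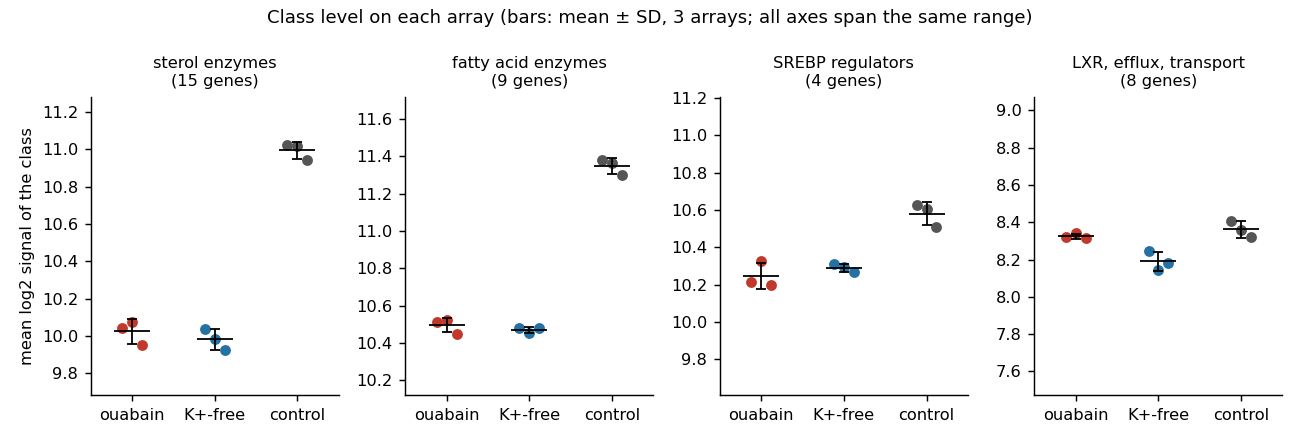
Mean log2 signal of each gene class on each array (points), with the mean and SD of 3 arrays per medium (bars), for ouabain, K+-free and control cells from left to right. Sterol enzymes (15 genes) sat between 9.93 and 10.08 on all treated arrays and between 10.94 and 11.02 on control arrays. The 8 genes of the LXR and transport class lay between 8.31 and 8.34 with ouabain and between 8.14 and 8.24 in K+-free medium. On control arrays the mean of this class was 8.32 to 8.41, which the ouabain arrays overlapped and the K+-free arrays did not.

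The early steps of sterol synthesis include the thiolase *Acat2*, which joins acetyl-CoA units, the mevalonate pathway enzymes *Pmvk* and *Mvd*, and the isomerase *Idi1*. *Acat2* had log2 signals of 10.72, 10.78 and 10.65 with ouabain, 10.25, 10.18 and 10.10 in K+-free medium and 11.96, 11.98 and 11.90 in control cells. *Mvd*, which makes isopentenyl diphosphate by decarboxylation, had 8.45, 8.48 and 8.13 with ouabain, 7.71, 7.52 and 7.59 in K+-free medium and 9.48, 9.44 and 9.30 in control cells. For both genes the 3 media formed separate steps, with K+-free arrays lowest. The log2 change of *Acat2* was -1.23 with ouabain (SE 0.057, adjusted p = 2.61e-08) and -1.77 without K+ (SE 0.057, adjusted p = 1.79e-09). *Mvd* changed by -1.05 with ouabain (SE 0.094, adjusted p = 3.61e-06), a 2.07-fold fall, and by -1.80 without K+ (SE 0.094, adjusted p = 4.69e-08), a 3.49-fold fall. *Pmvk* fell in both treatments, with log2 changes of -0.88 (ouabain) and -1.05 (K+-free medium), and so did *Idi1*, with -0.59 (ouabain) and -0.36 (K+-free medium).

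Squalene is made by *Fdft1*, epoxidised by *Sqle* and closed to lanosterol by *Lss*. *Lss* had log2 signals of 9.29, 9.45 and 9.13 with ouabain, 9.70, 9.54 and 9.40 in K+-free medium and 11.12, 11.01 and 10.99 in control cells. The treated arrays overlapped each other and were far below the control arrays. The change of *Lss* was -1.75 with ouabain (SE 0.093, adjusted p = 6.38e-08) and -1.50 in K+-free medium (SE 0.093, adjusted p = 1.69e-07). *Fdft1* fell with log2 changes of -1.10 (ouabain) and -0.99 (K+-free medium), and *Sqle* with -0.73 (ouabain) and -0.75 (K+-free medium).

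Lanosterol is trimmed to cholesterol by *Cyp51*, *Tm7sf2*, *Msmo1*, *Nsdhl*, *Hsd17b7*, *Ebp*, *Sc5d* and *Dhcr7*. *Nsdhl*, a dehydrogenase that takes part in removing sterol methyl groups, had log2 signals of 10.00, 10.01 and 10.02 with ouabain, 9.57, 9.46 and 9.47 in K+-free medium and 11.87, 11.87 and 11.84 in control cells. It fell 3.59-fold with ouabain and 5.13-fold in K+-free medium (changes of -1.85 and -2.36, SE 0.050 each, adjusted p = 1.46e-09 and 1.23e-10). *Dhcr7*, the reductase that ends one branch of the pathway, had 8.08, 8.07 and 7.94 with ouabain, 8.78, 8.72 and 8.49 in K+-free medium and 10.42, 10.29 and 10.23 in control cells. Its order of media was the reverse of that of *Nsdhl*, with ouabain lowest. *Dhcr7* changed by -2.28 with ouabain (SE 0.083, adjusted p = 5.83e-09), at rank 38 of 27342 probe sets by size, and by -1.65 without K+ (SE 0.083, adjusted p = 3.58e-08).

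The other late enzymes changed less. *Ebp*, an isomerase, fell with log2 changes of -0.92 (ouabain) and -0.65 (K+-free medium), and the reductase *Hsd17b7* with -0.73 (ouabain) and -0.88 (K+-free medium). The desaturase *Sc5d* fell with -0.50 (ouabain) and -0.63 (K+-free medium), and *Cyp51*, a demethylase, with -0.46 (ouabain) and -0.44 (K+-free medium). *Tm7sf2*, a sterol reductase, fell by 0.37 in ouabain, while its change of -0.17 in K+-free medium was under 1.2-fold (adjusted p = 0.0284). That value of *Tm7sf2* became a call under centring on reference genes (-0.28) or on *B2m* (-0.33) and was 0.04 under repeated quantile normalization. *Msmo1*, the methyl oxidase that works with *Nsdhl*, was the single sterol enzyme that passed in neither treatment. Its log2 signals were 12.91, 12.93 and 12.83 with ouabain, 12.85, 12.82 and 12.74 in K+-free medium and 13.03, 13.06 and 13.00 in control cells. All treated arrays were below all control arrays, with log2 differences of -0.14 with ouabain (SE 0.053, adjusted p = 0.0543) and -0.22 without K+ (SE 0.053, adjusted p = 0.00514, 1.17-fold). Centring on reference genes or on *B2m* turned both values into calls.

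**Figure D2:**
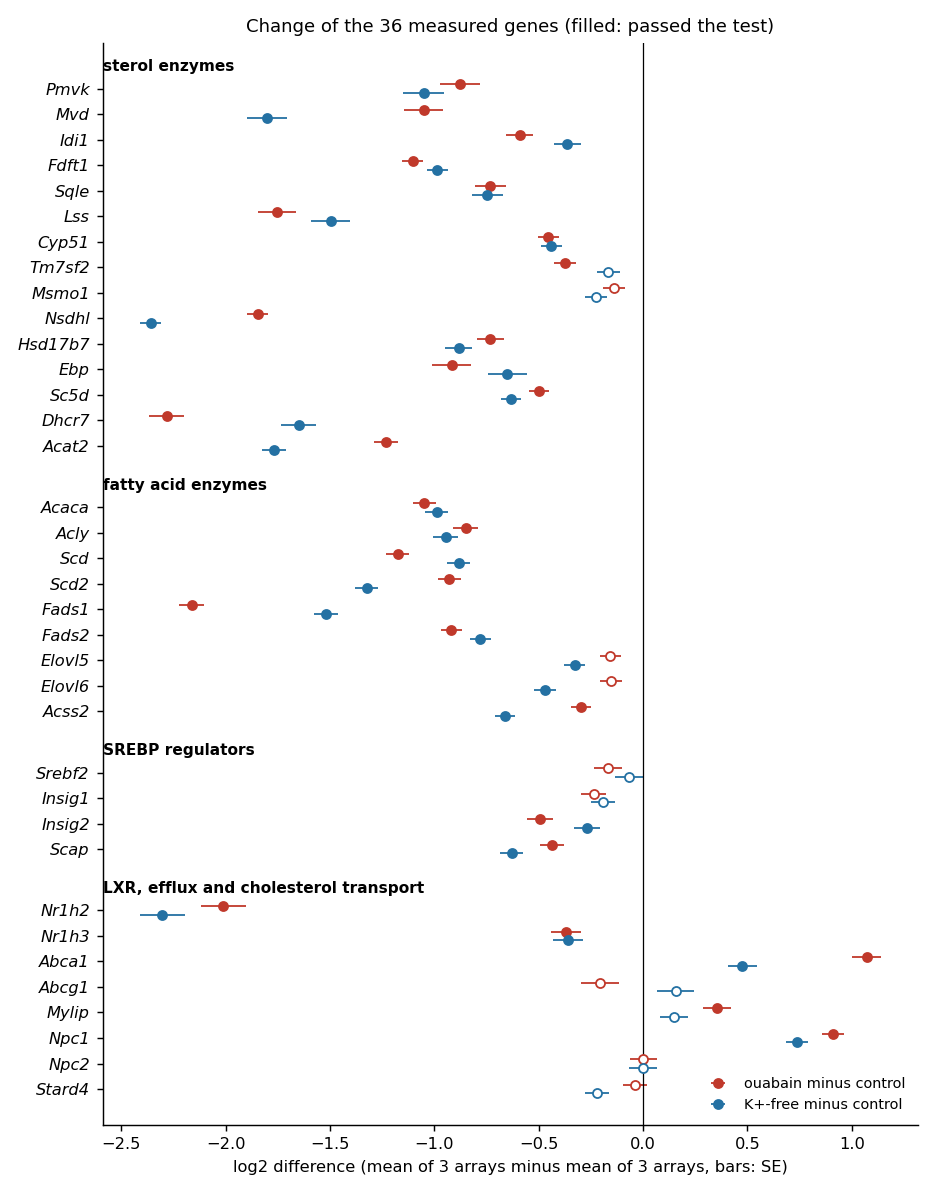
Log2 difference from control of each of the 36 genes with its SE (bars), for ouabain (red, upper point) and K+-free medium (blue, lower point), with filled points where the test was passed. All 24 enzymes lie left of 0 in both treatments, from *Msmo1* at -0.14 to *Dhcr7* at -2.28 with ouabain, and *Abca1* at 1.07 with ouabain lies farthest to the right.

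Acetyl-CoA for fatty acids comes from citrate through *Acly* and from acetate through *Acss2*, and *Acaca* turns it into malonyl-CoA. *Acaca*, the committed step, had log2 signals of 8.82, 8.86 and 8.77 with ouabain, 8.95, 8.82 and 8.87 in K+-free medium and 9.90, 9.88 and 9.81 in control cells. It fell 2.07-fold with ouabain and 1.98-fold in K+-free medium (changes of -1.05 and -0.99, SE 0.055 each, adjusted p = 5.8e-08 and 7.1e-08). *Acly* fell with log2 changes of -0.85 (ouabain) and -0.95 (K+-free medium). *Acss2* had 9.32, 9.27 and 9.26 with ouabain, 8.92, 8.93 and 8.90 in K+-free medium and 9.62, 9.61 and 9.51 in control cells, and its log2 change was -0.30 with ouabain and -0.66 without K+. The arrays of the 3 media did not overlap for *Acss2*.

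Desaturases place double bonds in fatty acids. *Fads1*, which acts on polyunsaturated chains, had log2 signals of 8.77, 8.85 and 8.79 with ouabain, 9.44, 9.43 and 9.47 in K+-free medium and 11.07, 10.96 and 10.87 in control cells. It fell 4.48-fold with ouabain (change -2.16, SE 0.059, adjusted p = 1.46e-09) and 2.87-fold in K+-free medium (change -1.52, SE 0.059, adjusted p = 5.57e-09). *Fads2*, its partner in the same chain, fell with -0.92 (ouabain) and -0.78 (K+-free medium). *Scd* and *Scd2*, a pair of stearoyl-CoA desaturases, fell in both treatments. *Scd* had 9.54, 9.38 and 9.45 with ouabain, 9.76, 9.75 and 9.74 in K+-free medium and 10.66, 10.66 and 10.57 in control cells. *Scd2* had 11.92, 11.89 and 11.79 with ouabain, 11.40, 11.49 and 11.53 in K+-free medium and 12.80, 12.81 and 12.77 in control cells. *Scd* was lower with ouabain and *Scd2* was lower in K+-free medium. The log2 change of *Scd* was -1.18 with ouabain and -0.88 without K+, and that of *Scd2* was -0.93 with ouabain and -1.33 without K+. The desaturases are close copies of each other, and how far the probes of one read the other was not tested.

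The elongases were the fatty acid enzymes with the smallest changes. *Elovl6*, which lengthens saturated chains, had log2 signals of 12.51, 12.47 and 12.42 with ouabain, 12.20, 12.09 and 12.16 in K+-free medium and 12.64, 12.64 and 12.58 in control cells. It fell by 0.47 in K+-free medium (SE 0.052, adjusted p = 1.74e-05), and with ouabain its change of -0.15 was under 1.2-fold (adjusted p = 0.0331). *Elovl5*, an elongase of polyunsaturated chains, changed by -0.16 with ouabain (adjusted p = 0.0265, under 1.2-fold) and fell by 0.33 in medium free of K+. Centring on reference genes or on *B2m* turned both ouabain values into calls.

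The regulators of SREBP had smaller median changes than the enzyme classes. *Srebf2*, the gene of SREBP2, had log2 signals of 10.63, 10.72 and 10.54 with ouabain, 10.71, 10.81 and 10.68 in K+-free medium and 10.87, 10.81 and 10.71 in control cells. Its arrays overlapped between treated and control cells, with differences of -0.17 (SE 0.066, adjusted p = 0.0604) and -0.07 (SE 0.066, adjusted p = 0.432). *Insig1*, which retains SREBPs and is itself a known SREBP target, had 12.01, 12.15 and 11.96 with ouabain, 12.07, 12.12 and 12.06 in K+-free medium and 12.31, 12.30 and 12.23 in control cells. The differences of -0.24 and -0.19 were under 1.2-fold (adjusted p = 0.007 and 0.0203), and a second probe set of *Insig1* gave 0.02 and 0.06 (adjusted p = 0.898 and 0.619). Centring on the reference genes or on *B2m* made a call of *Insig1* in both treatments and of *Srebf2* with ouabain.

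*Scap* and *Insig2* were the regulators that fell. *Scap*, the escort of SREBP to the Golgi, had log2 signals of 9.33, 9.39 and 9.34 with ouabain, 9.23, 9.16 and 9.09 in K+-free medium and 9.83, 9.82 and 9.73 in control cells. The log2 change of *Scap* was -0.44 with ouabain (SE 0.056, adjusted p = 6.36e-05) and -0.63 without K+ (SE 0.056, adjusted p = 2.9e-06). *Insig2*, which retains SREBPs like *Insig1*, changed by -0.49 with ouabain (SE 0.064, adjusted p = 6.7e-05) and by -0.27 without K+ (SE 0.064, adjusted p = 0.00513). The K+-free call of *Insig2* was at the 1.2-fold limit and was lost without control replicate 1 (change -0.25), without control replicate 2 (-0.25) and without K+-free replicate 2 (-0.22).

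The LXR and transport class held both the falls and the rises. *Nr1h2*, the gene of LXR beta, had log2 signals of 7.64, 7.86 and 7.67 with ouabain, 7.69, 7.22 and 7.38 in K+-free medium and 9.80, 9.72 and 9.68 in control cells. It fell 4.03-fold with ouabain (change -2.01, SE 0.108, adjusted p = 7.01e-08) and 4.94-fold in K+-free medium (change -2.31, SE 0.108, adjusted p = 2.17e-08). By size of change it stood at rank 87 with ouabain and rank 92 in K+-free medium of 27342 probe sets. *Nr1h3*, the gene of LXR alpha, had signals of 5.45 to 5.63 with ouabain and 5.48 to 5.56 in K+-free medium, against 5.75 to 5.99 in control cells. *Nr1h3* fell with log2 changes of -0.37 (ouabain) and -0.36 (K+-free medium), and its mean signal was at the percentile 19.3 of all probe sets.

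*Abca1*, the exporter of cholesterol to apolipoproteins and a known LXR target, was higher in both treatments. Its log2 signals were 9.51, 9.59 and 9.43 with ouabain and 8.91 on each array in K+-free medium, against 8.58, 8.34 and 8.39 in control cells. The rise was 2.10-fold with ouabain (change 1.07, SE 0.069, adjusted p = 2.68e-07) and 1.39-fold in K+-free medium (change 0.47, SE 0.069, adjusted p = 0.000167). *Abcg1*, a second exporter and LXR target, did not pass against control, with differences of -0.21 (SE 0.091, adjusted p = 0.0856) and 0.16 (SE 0.091, adjusted p = 0.184) and with overlapping arrays. Its ouabain value became a lower call under repeated quantile normalization (-0.29, adjusted p = 0.0269), under centring on reference genes (-0.34, adjusted p = 0.0151) and under centring on *B2m* (-0.36, adjusted p = 0.00529). *Mylip*, an LXR-driven ubiquitin ligase acting on lipoprotein receptors, rose by 0.36 with ouabain (SE 0.067, adjusted p = 0.00121), and its difference of 0.15 in K+-free medium did not pass (SE 0.067, adjusted p = 0.0935). The ouabain call of *Mylip* was lost under centring on reference genes or on *B2m*.

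*Npc1* and *Npc2* carry cholesterol out of lysosomes together. *Npc1* had log2 signals of 11.66, 11.64 and 11.54 with ouabain, 11.44, 11.39 and 11.51 in K+-free medium and 10.73, 10.68 and 10.71 in control cells. It rose 1.88-fold with ouabain and 1.67-fold in K+-free medium (changes of 0.91 and 0.74, SE 0.054 each, adjusted p = 1.46e-07 and 6.02e-07). *Npc2* had 11.90, 12.03 and 11.79 with ouabain, 11.86, 11.98 and 11.88 in K+-free medium and 11.94, 11.88 and 11.89 in control cells, and its arrays overlapped (adjusted p = 0.989 with ouabain). *Stard4*, a carrier of sterol between membranes, differed from control by -0.04 in ouabain-treated cells (adjusted p = 0.611) and by -0.22 in cells without K+ (adjusted p = 0.00833, under 1.2-fold), the last becoming a call under centring on reference genes (-0.33) or on *B2m* (-0.38). Of 6 macrophage markers, 3 rose in both treatments, namely *Cd68*, *Cd14* and *Csf1r*, whereas *Ptprc*, *Adgre1* and *Itgam* had means of 5.35 to 5.76 in every group and did not pass. The mean log2 signal of that list was 6.63 to 6.67 with ouabain and 6.43 to 6.52 in K+-free medium, against 6.07 to 6.14 in control cells, and its part in the rises of *Abca1* and *Npc1* was not tested.

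**Figure D3:**
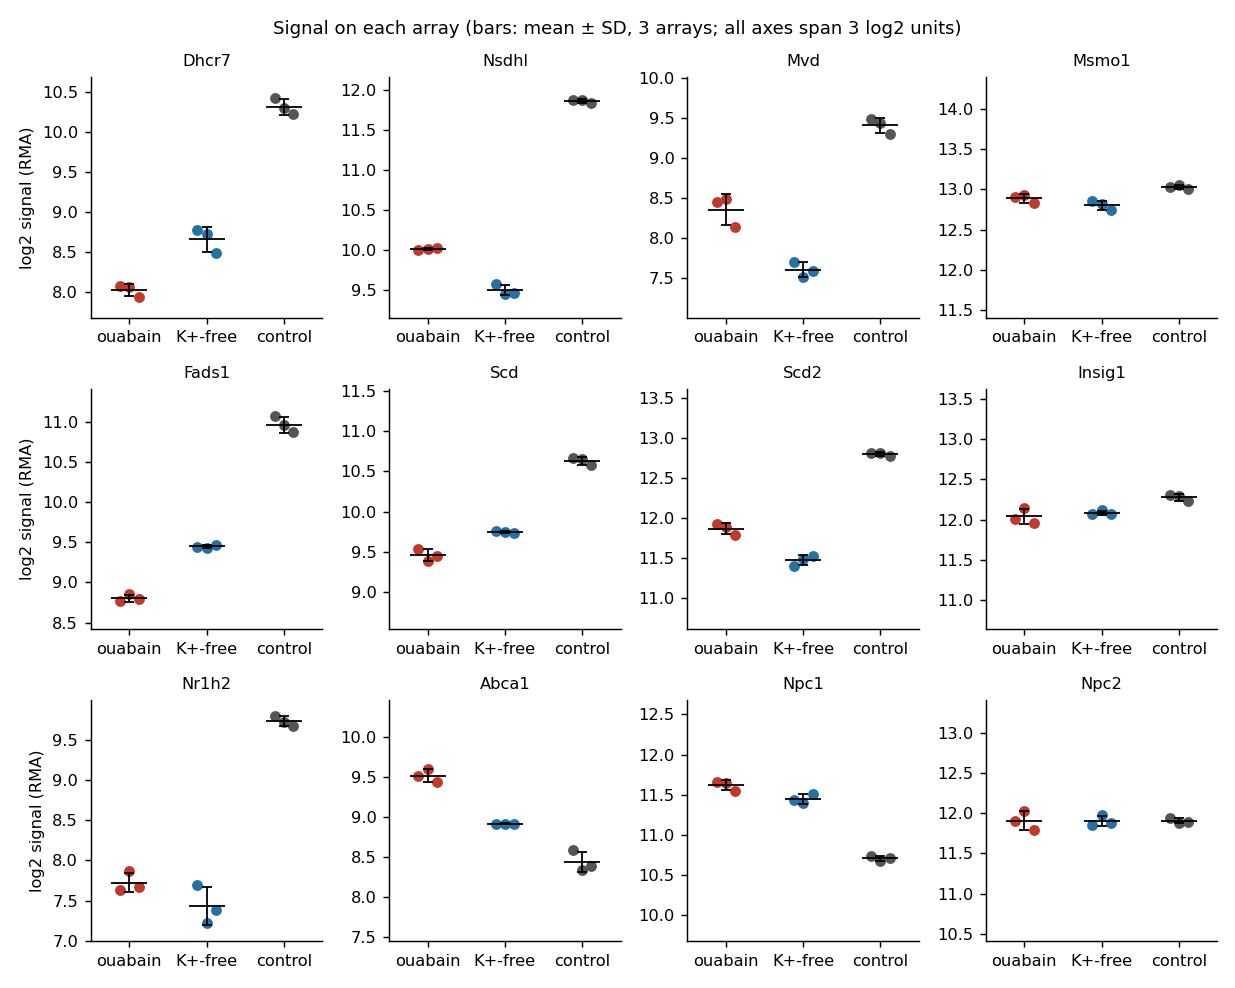
Log2 signal of 12 genes on each array (points) with the mean and SD of 3 arrays (bars), for ouabain, K+-free and control cells from left to right, all panels spanning 3 log2 units. *Dhcr7*, *Nsdhl*, *Mvd*, *Fads1* and *Nr1h2* dropped by more than 1 unit in both treatments, *Abca1* and *Npc1* stood above their control arrays, and *Npc2* overlapped in all 3 media.

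Set against each other, the treatments gave different values for 11 of the 36 genes, with 4 of them higher and 7 lower where K+ was left out. Over all probe sets 8.45% were called higher and 7.97% lower in this comparison. Arrays of the treatments did not overlap for 23 of 36 genes, where 32.4% of all probe sets did not. Among the 14324 genes with a probe set of their own they did not overlap for 5730, and 10.9% were higher and 10.7% lower. Among the 3052 of these with a mean log2 signal above 10 they did not overlap for 1788, with 13.2% higher and 14.5% lower. Of the 17 members above that signal, 10 did not overlap, 0 were higher and 4 were lower. The median difference was -0.05 over the 36 genes and -0.01 over all probe sets. Lower in K+-free medium were *Mvd* (log2 difference -0.75, SE 0.094, adjusted p = 0.000167), *Acat2* (-0.54), *Nsdhl* (-0.51), *Scd2* (-0.40), *Acss2* (-0.36), *Elovl6* (-0.32) and *Abca1* (-0.60). Higher in K+-free medium were *Fads1* by 0.64 (SE 0.059, adjusted p = 1.64e-05), *Dhcr7* by 0.63 (SE 0.083, adjusted p = 0.000227), *Abcg1* by 0.36 (SE 0.091, adjusted p = 0.0135) and *Scd* by 0.29 (SE 0.055, adjusted p = 0.00258). Without ouabain replicate 2 the calls of *Scd* (difference 0.25) and *Abcg1* (difference 0.26) were lost, and without K+-free replicate 1 that of *Abcg1* was lost (difference 0.32).

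Calls of the enzymes between the treatments went in both directions, as did those of all probe sets (8.45% higher and 7.97% lower without K+). For genes with a mean log2 signal above 10 the shares were 13.2% higher and 14.5% lower. Of 15 sterol enzymes, 1 was higher and 3 were lower in K+-free medium than with ouabain, with a class median of -0.02, and of 9 fatty acid enzymes, 2 were higher and 3 lower, with a median of -0.10 that was -0.04 without ouabain replicate 2. None of the 4 SREBP regulators passed, with *Insig2* higher by 0.23 (adjusted p = 0.026) and *Scap* at -0.19 (adjusted p = 0.0292), both under 1.2-fold. In the LXR and transport class *Abca1* and *Abcg1* went opposite ways. *Abca1* had 8.91 on every K+-free array and 9.43 to 9.59 with ouabain, and *Abcg1* had 6.45 to 6.63 in K+-free medium and 5.98 to 6.30 with ouabain.

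**Figure D4:**
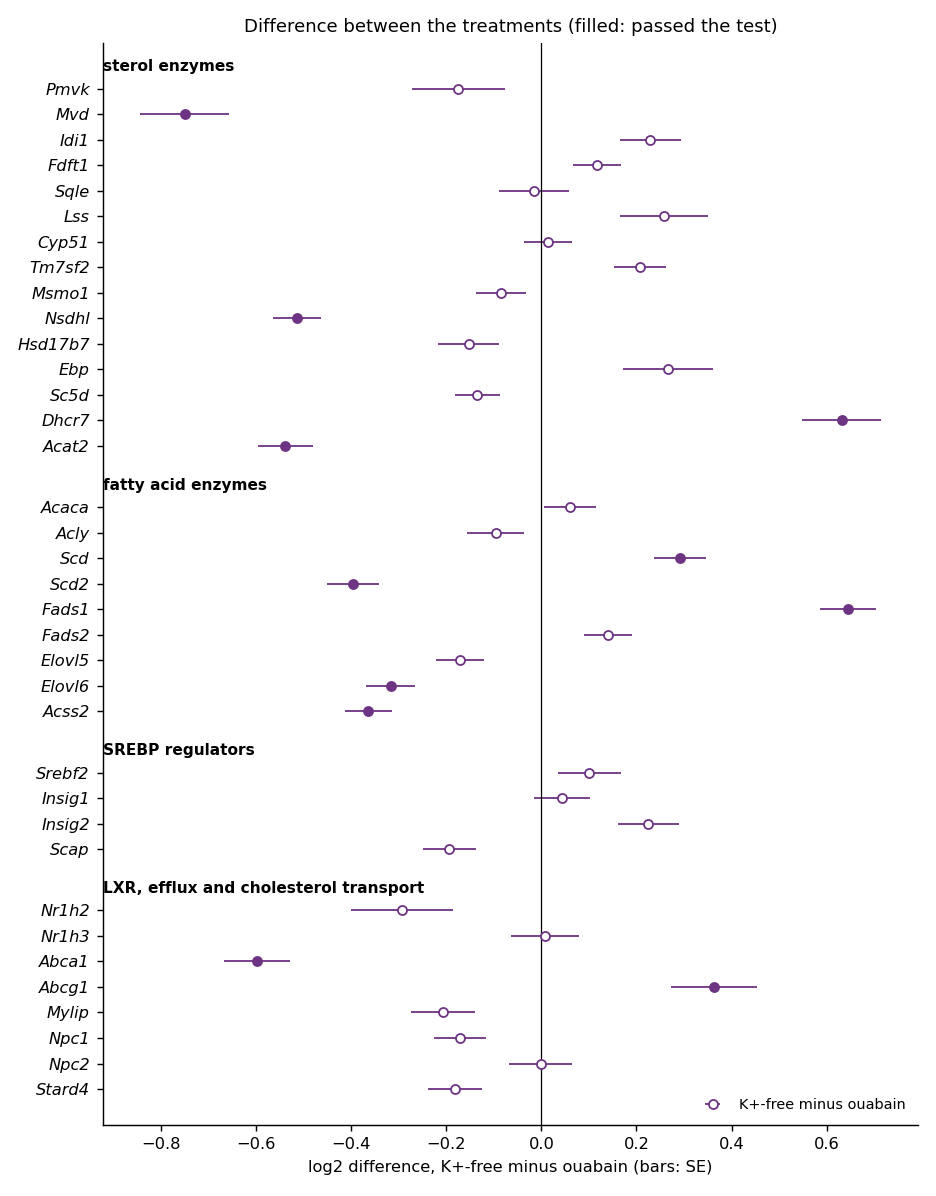
Log2 difference of K+-free medium minus ouabain for each of the 36 genes with its SE (bars), with filled points where the test was passed. *Mvd* at -0.75 lies farthest to the left, and *Fads1* at 0.64 and *Dhcr7* at 0.63 lie farthest to the right.

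One other list held 26 further sterol pathway genes, of which 19 were measured. With ouabain 12 fell and 5 rose (median -0.32), and in K+-free medium 8 fell and 5 rose (median -0.15). Over all probe sets 16.8% fell and 15.8% rose with ouabain, and 17.9% fell and 16.1% rose in K+-free medium. In log2 signal, *Aacs*, which activates acetoacetate for lipid synthesis, averaged 9.10 with ouabain and 8.71 in K+-free medium, against 10.38 in control cells. *Scarb1*, a receptor for high density lipoprotein, averaged 8.26 with ouabain and 8.25 in K+-free medium, against 9.49 in control cells, and *Stard3nl*, an endosomal sterol binding protein, averaged 8.55 and 8.30, against 10.50. *Soat1*, which esterifies cholesterol, averaged 12.34 and 12.32 in the treatments, against 11.56 in control cells. All 4 genes passed in both treatments, the first 3 lower and *Soat1* higher. *Lipa*, the lysosomal lipase that frees cholesterol from its esters, was higher in K+-free medium than with ouabain by 0.62 (adjusted p = 7.67e-05).

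Another list held 26 further fatty acid and glycerolipid genes, of which 20 were measured. With ouabain 10 fell and 2 rose (median -0.25), where 16.8% of all probe sets fell and 15.8% rose. In K+-free medium 11 fell and 3 rose (median -0.29), where 17.9% of all probe sets fell and 16.1% rose. *Slc27a4*, a fatty acid transport protein, fell with log2 changes of -1.60 (ouabain) and -2.19 (K+-free medium). *Lpin1*, a phosphatidate phosphatase, fell with -1.40 (ouabain) and -1.06 (K+-free medium), and *Gpam*, which starts glycerolipid synthesis, with -1.03 (ouabain) and -1.35 (K+-free medium). *Acsl4*, a ligase that activates arachidonate, rose with log2 changes of 1.31 (ouabain) and 1.12 (K+-free medium). Coats of lipid droplets separated the treatments. *Plin2* averaged 7.90 in K+-free medium and 9.04 with ouabain, a difference of -1.15 (adjusted p = 5.18e-07), and *Plin3* averaged 7.45 and 8.08, a difference of -0.64 (adjusted p = 4.84e-05). In control cells *Plin2* averaged 9.38 and *Plin3* 9.31.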

How the data were processed

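The authors deposited 1 table of 9 arrays with 27342 probe sets each, in log2 units. The authors made them by RMA in Partek, as the submitters' processing notes name these tools without versions. The study's methods also name MAS5 in GeneSpring in a general passage. The deposited log2 values ran from 4.22 to 14.55. RNA was accepted by the authors above a fixed integrity number, and treatments and controls were run in parallel in each experiment. The number of arrays limits the precision, and each medium had 3.

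Probe sets were named from the platform annotation: 15097 carried 1 symbol, 323 several and 11922 none. Where a gene had several probe sets, that of the highest mean was kept. In limma 3.58.1 (R 4.3.3) 1 mean per medium was fitted to all 9 arrays, variances were moderated (prior SD 0.0815 on 4.59 degrees of freedom, with 6 residual degrees), 3 contrasts were taken, and p-values were adjusted by Benjamini-Hochberg over all 27342 probe sets. Values are given as mean differences with the moderated SE. The fit was tested on simulated data. With 3 arrays a group, 0.1 is the smallest two-sided p of an exact permutation test, which was not used.

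The members, classes and other lists were chosen with earlier results of these data known. Every member with a probe set of its own is named, and from each other list at most 4 genes per contrast, those with the largest change among the genes called. In addition *Cpt1a* is named, as the gene of fatty acid oxidation that rose with ouabain. Markers of cell types are named as the check of the cells. Alternatives covered scaling, filters, moderation, the test, the fold limit, the probe set per gene, the replicate number as a block and leaving out each array. Promoter windows were searched with Python 3.11.15.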

Additional observations from a re-analysis of the deposited data

How the results depend on the processing

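No called gene changed direction under any of the 24 alternatives. The counts of genes called against control stayed within 1.5 times under all of them, except that 1 gene in place of 2 was higher in K+-free medium at a fold above 1.5. Between K+-free medium and ouabain, 19 genes (7 higher and 12 lower) were called with no fold limit and 4 (2 higher and 2 lower) at a fold above 1.5, since the limit itself decides differences of this size. Leaving out 1 array in turn gave 28 to 29 genes with ouabain, 27 to 28 in K+-free medium and 11 to 13 between the treatments.

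Medians near 0 changed sign. For the LXR and transport class the median in K+-free medium was -0.0373 after centring on reference genes and -0.0847 after centring on *B2m*, and with ouabain it ranged from -0.0546 (without ouabain replicate 2) to 0.0193 (without ouabain replicate 3) when 1 array was left out. For the sterol enzymes the difference of K+-free medium minus ouabain had a median of 0.0010 after centring on reference genes and ranged from -0.0848 (without ouabain replicate 3) to 0.0388 (without ouabain replicate 2) when 1 array was left out. For the fatty acid enzymes the same median ranged from -0.137 (without ouabain replicate 3) to -0.0423 (without ouabain replicate 2). After centring on *B2m* the median of the SREBP regulators in K+-free medium was -0.389 and that of the LXR and transport class with ouabain was -0.171. The median of all probe sets shifted from 0.07 to -0.08 with ouabain and from 0.06 to -0.10 in K+-free medium after centring on *B2m*.

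With the replicate block, 12 genes in place of 11 differed between the treatments (*Ebp* was added), and no other call of the 36 genes changed. Deviations of same-numbered arrays correlated from -0.05 to 0.31, over 0.1 in 4 of 9 pairs. Pairs of different number correlated from -0.28 to 0.16, over 0.1 in 1 of 18, and not every array correlated best with its own number. The labels do not say whether a number marks 1 experiment, so that the main fit had no block. *Tm7sf2* and *Acss2* lost their ouabain call under repeated quantile normalization. *Insig2* lost its K+-free call under repeated quantile normalization and under centring on array medians. *Abcg1* lost its call between the treatments in the unmoderated analysis of variance and in the methods' t-test after adjustment. Between the treatments, calls were added without ouabain replicate 2 (*Lss*, *Insig2*), without ouabain replicate 3 (*Idi1*), without K+-free replicate 1 (*Nr1h2*), without K+-free replicate 2 (*Idi1*, *Insig2*) and without K+-free replicate 3 (*Lss*), and with ouabain *Insig1* was added without ouabain replicate 2. *Nr1h3* was among the dimmest 25% of probe sets.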

Other observations

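Genes of fatty acid oxidation, the process that runs against synthesis, also fell more often than they rose in both treatments. The mean log2 signal of this list was lower on every treated array than on every control array, as for the enzymes of synthesis. Of 18 measured genes, 8 fell and 1 rose with ouabain (median -0.23), and 7 fell and 3 rose in K+-free medium (median -0.06). Shares of all probe sets were 16.8% lower and 15.8% higher with ouabain, and 17.9% lower and 16.1% higher in K+-free medium. The gene that rose with ouabain was *Cpt1a* (log2 change 0.71), which also rose in K+-free medium (0.41). *Crot*, a carnitine acyltransferase of peroxisomes, averaged 7.96 with ouabain and 7.65 in K+-free medium, against 9.80 in control cells. *Acads*, which oxidises short chains, averaged 6.65 and 6.64, against 8.03. *Etfa*, a subunit of the flavoprotein that takes electrons from these enzymes, averaged 9.40 and 9.88, against 10.82 in control cells.

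Between the treatments 6 of the 18 genes of this list were higher without K+ and 4 were lower. Over all probe sets 8.45% were higher and 7.97% lower, and among genes with a mean log2 signal above 10 the shares were 13.2% and 14.5%. *Ppard*, a nuclear receptor for fatty acids, averaged 10.20 in K+-free medium and 9.42 with ouabain, a difference of 0.78 (limma, adjusted p = 1.53e-05), and 10.11 in control cells. *Acadvl*, *Etfa* and *Cpt2* were higher in K+-free medium by 0.51, 0.49 and 0.48 on the log2 scale.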
